A study of Mus musculus with 8 samples.

Results

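The 10 genes described here act in cyclic AMP turnover and response, and were followed through 8 RNA-seq libraries of CD4 T cells from mouse spleen, sorted by flow cytometry. They are the phosphodiesterases Pde3b, Pde4a, Pde4b, Pde4d, Pde7a and Pde8a, the adenylate cyclase Adcy7, the protein kinase A subunits Prkar1a and Prkacb, and the exchange factor Rapgef4. These 10 genes of the 54837 in the table were named from measured values of the same libraries, so their group differences are given as a description, with no test. All 10 were matched by symbol to the mouse Ensembl identifiers, and all 10 passed the filter on low counts that left 18851 genes.

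The libraries form 3 groups, and all mice had received tamoxifen for 5 days. The GFPhi group (n = 3) was sorted for TIM-3 and FLAG as well as for GFP and FoxP3 (all +), from mice with both the Foxp3-eGFP-Cre-ERT2 and the FSF-TIM-3 allele. The GFPLow group (n = 3) came from the same genotype and was TIM-3+ and FLAG+ but GFP- and FoxP3-. The WT group (n = 2) was GFP+ and FoxP3+ but TIM-3- and FLAG-, from mice with the Cre allele alone. Every group thus carries the Cre allele, which is named for the Foxp3 gene, and the WT mice are not free of it. GFPLow differs from WT in genotype, in TIM-3 and in FoxP3 status together, and from GFPhi in the GFP and FoxP3 gates. The RNA level of TIM-3 was also lower in GFPLow than in GFPhi, as given below. The effects of these features cannot be told apart within either comparison. Nothing in the labels says that the libraries of a group come from separate mice, and adjusted p-values then measure only the spread between these libraries. Mouse age is not given in the sources used here.

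Cyclic AMP is made by adenylate cyclases after stimulatory G proteins are engaged by receptors such as those for prostaglandin E2, adenosine or catecholamines. It frees the catalytic subunits of protein kinase A from their regulatory subunits and opens the Epac exchange factors, which load the small GTPase Rap1. Phosphodiesterases end the signal by hydrolysing cyclic AMP. In regulatory T cells (Tregs), FoxP3 is known to repress Pde3b, and these cells are known to hold more cyclic AMP than conventional T cells.

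Promoter sequence (250 bases before to 50 after a transcription start, RefSeq on GRCm38.p6) was at hand in 22 windows of 8 of the 10 genes; Pde3b and Pde7a were not matched. The cyclic AMP response element was searched as the palindrome TGACGTCA and as its core TGACG, on both strands, where each palindrome also holds the core. The palindrome was in 2 of the 22 windows, which overlap and both belong to Prkar1a, and in 1.79% of 32851 promoter windows of all genes. The core was in 8 of the 22 windows and in 20.8% of all windows. The 2 overlapping Prkar1a windows are among the 8 and hold the same palindrome. These 8 windows belong to 6 of the 8 genes, which have 1 to 6 windows each, and no share per gene was computed for all genes. The forkhead core TGTTTAC was in 0 of the 22 windows and in 3.65% of all windows. A match describes letters only, and the counts of this study hold no measure of binding. Stretches upstream of a start are shown for Prkar1a (the palindrome), for Adcy7 (the cyclase, with 1 core) and for Rapgef4 (the widest difference among genes with a window, and without any of these elements). The strand is plus, the order is 5′ to 3′, and capitals mark the palindrome or the core, which in Adcy7 lies on the minus strand.
Prkar1a, chr11:109650889-109650918: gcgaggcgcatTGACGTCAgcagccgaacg
Adcy7, chr8:88282872-88282991: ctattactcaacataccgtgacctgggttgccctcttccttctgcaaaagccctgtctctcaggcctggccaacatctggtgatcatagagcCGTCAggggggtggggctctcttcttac
Rapgef4, chr2:71981015-71981214: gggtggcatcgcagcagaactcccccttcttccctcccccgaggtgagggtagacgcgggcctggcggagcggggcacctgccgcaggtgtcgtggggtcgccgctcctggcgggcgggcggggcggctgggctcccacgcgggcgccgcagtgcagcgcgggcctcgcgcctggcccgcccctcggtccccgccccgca
The Rapgef4 stretch has 79.5% G and C and 26 CpG dinucleotides in 200 bases. The Adcy7 stretch has 2 CpG dinucleotides in 120 bases.

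Total counts ran from 44446215 to 55388756 per library, and values below are TMM-scaled CPM, that is, counts scaled to a common library size. WT library 1 differed from the rest: 18599 genes had a count, against 21248 to 22185, it had a mitochondrial share of 6.54%, against 2.35% to 2.78%, and correlations with the other libraries of 0.853 to 0.885, against 0.925 to 0.963 among the rest. Log2 fold changes of the 10 genes against WT are therefore given with and without it, and paired WT values name library 1 first. Foxp3 was 60.16, 68.1 and 80.95 CPM in GFPhi and 41.66 and 63.19 in WT, but 2.447, 1.971 and 4.824 in GFPLow, whose sample titles still call the cells Treg. Havcr2, which encodes TIM-3, was 1077 to 1791 CPM in GFPhi, 127.1 to 538.2 in GFPLow and at most 0.876 in WT. The 4 T cell markers (Cd3e, Cd3d, Cd4 and Trac) summed to 3066 to 5604 CPM in the 8 libraries. The top sum is that of WT library 1 and rests on Cd3d (4583 CPM, against 1053 to 1245 elsewhere). Its Cd3e (190.1), Cd4 (109.3) and Trac (721.3) were each the lowest of the 8 libraries.

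Pde3b, a phosphodiesterase that cyclic GMP can inhibit, showed the widest difference of the 10. The gene (ENSMUSG00000030671) lies at chr7:114415281-114539251, plus strand, GRCm38. Its level was 70.46, 81.03 and 97.40 CPM in GFPLow, against 1.369, 5.741 and 5.373 in GFPhi and 1.979 and 1.931 in WT. Every GFPLow library was above every other library, and within GFPhi library 1 was the lowest. GFPLow was 19.9-fold above GFPhi (log2 fold change 4.32 ± 0.52, SE) and 42.4-fold above WT (5.41 ± 0.66, and 5.43 ± 0.85 without WT library 1). GFPhi against WT gave 1.09 ± 0.54 (1.11 ± 0.69 without that library), with overlapping libraries. The reads behind these values were 3772 to 5028 in the GFPLow libraries, 73 to 305 in GFPhi and 61 and 112 in WT.

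The Pde4 family, whose members are specific for cyclic AMP, was dominated by Pde4b (ENSMUSG00000028525, chr4:102087543-102607259, plus strand). Its level was 185.2, 167.8 and 154.6 CPM in GFPLow, 93.67, 97.23 and 79.28 in GFPhi, and 70.34 and 92.17 in WT. The GFPLow libraries were again above all others, by a log2 fold change of 0.91 ± 0.18 over GFPhi (1.88-fold) and 1.06 ± 0.21 over WT (0.88 ± 0.15 without WT library 1). GFPhi and WT overlapped, with 0.15 ± 0.20, and -0.03 ± 0.14 without that library.

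Pde4d (ENSMUSG00000021699, chr13:108449948-109953461, plus strand) was also highest in GFPLow. It had 14.76, 18.14 and 17.20 CPM in GFPLow, 9.318, 9.881 and 8.375 in GFPhi, and 11.10 and 7.983 in WT. The GFPLow libraries did not overlap with either group, at 0.86 ± 0.23 over GFPhi and 0.81 ± 0.26 over WT (1.07 ± 0.23 without WT library 1). GFPhi against WT gave -0.05 ± 0.25, and 0.20 ± 0.22 without that library.
Pde4a (ENSMUSG00000032177, chr9:21165714-21213248, plus strand) was the least abundant. It had 0.4125, 0.9411 and 0.4632 CPM in GFPhi, 0.0934, 1.117 and 0.05812 in GFPLow, and 0 and 2.069 in WT, from 0 to 120 reads per library. Single libraries within a group differed more than the groups did, and the log2 fold change of GFPLow against GFPhi was -0.52 ± 1.56, and ran from -2.96 without GFPLow library 2 to -0.0019 without GFPLow library 3. Against WT the values were -1.30 ± 1.70 for GFPLow and -0.78 ± 1.70 for GFPhi, and -2.28 ± 1.34 and -1.77 ± 1.35 without WT library 1. Both turned positive without WT library 2, when the only WT library left had no read of the gene. They also reached 0.60 for GFPLow and 1.59 for GFPhi under other processing choices that left no single library out.

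Pde7a and Pde8a are high-affinity phosphodiesterases for cyclic AMP that rolipram, the classic Pde4 inhibitor, does not block. Pde7a (ENSMUSG00000069094, chr3:19223108-19311322, minus strand) had 30.73, 37.26 and 32.49 CPM in GFPLow, 22.05, 18.86 and 14.29 in GFPhi, and 16.51 and 30.50 in WT. GFPLow lay above GFPhi without overlap, at 0.86 ± 0.28. The value of 30.50 in WT library 2 was just below the lowest GFPLow library, and the difference from WT was 0.51 ± 0.31, or 0.14 ± 0.24 without WT library 1. GFPhi against WT gave -0.36 ± 0.30, and -0.73 ± 0.23 without that library. An antisense gene, Gm16093, shares 48 exonic bases with Pde7a and had at most 0.09264 CPM.
Pde8a (ENSMUSG00000025584, chr7:81213596-81334533, plus strand) had 4.128, 5.750 and 4.107 CPM in GFPLow, 3.168, 5.929 and 6.800 in GFPhi, and 4.770 and 9.155 in WT. All 3 groups overlapped, and GFPLow against GFPhi gave -0.18 ± 0.40. GFPLow against WT gave -0.58 ± 0.44, and -0.97 ± 0.43 without WT library 1. GFPhi against WT gave -0.40 ± 0.44, and -0.79 ± 0.43 without it.

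**Figure D1:**
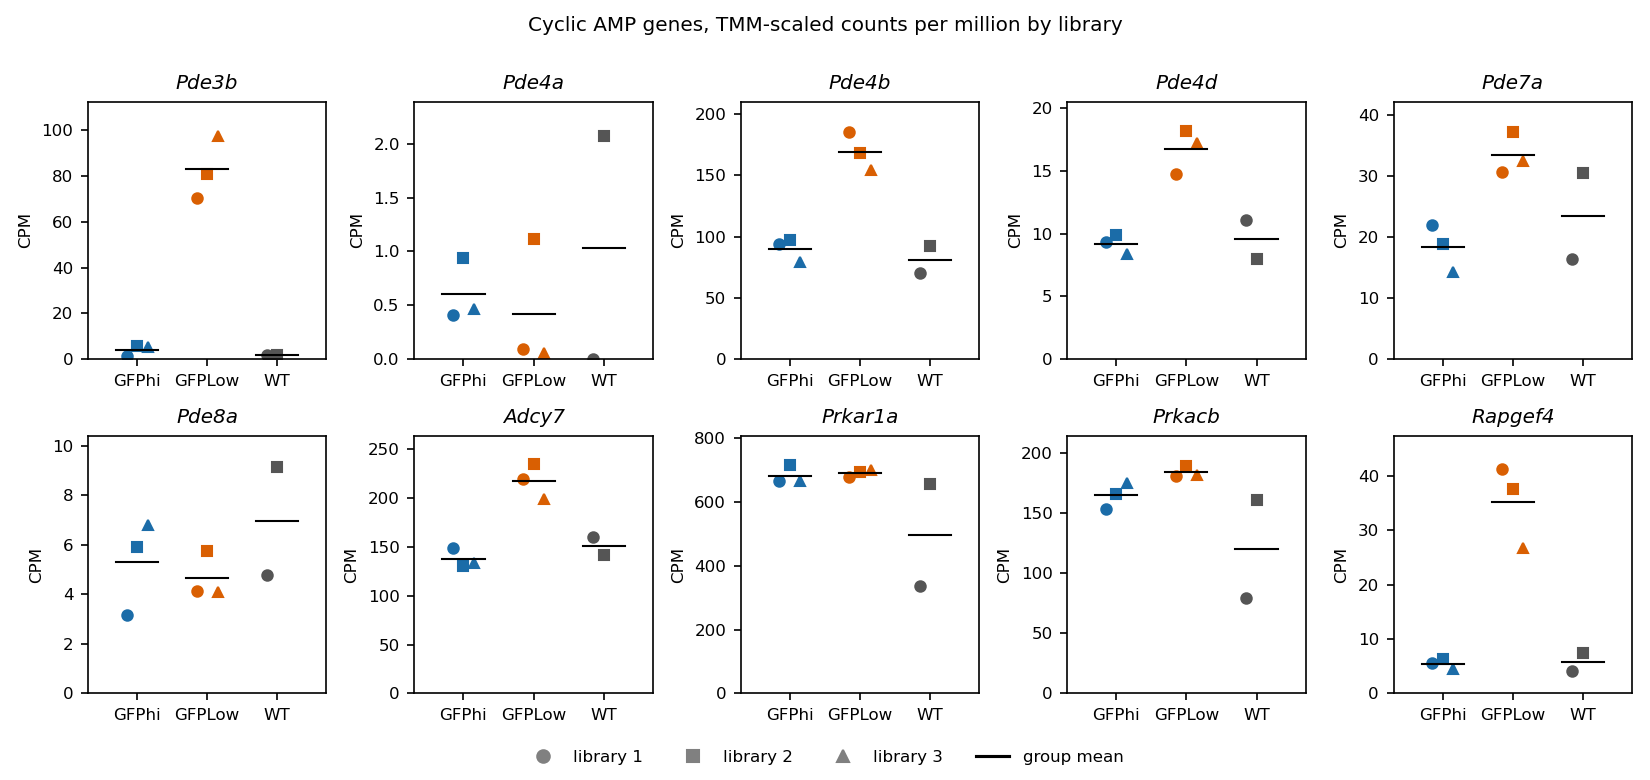
TMM-scaled CPM (vertical axes, each starting at 0) of the 10 genes in each library, by group; symbols give the library number and bars the group mean. GFPLow libraries lie well above the rest for Pde3b, Pde4b, Pde4d, Adcy7 and Rapgef4, while WT library 1 is far below the other libraries for Prkar1a and Prkacb.

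To compare genes with each other, CPM was divided by the length of merged exons in kilobases. For 16 phosphodiesterases that act on cyclic AMP, the 6 above and 10 others, the values were then summed per library. The summed level was 35.25, 35.69 and 35.88 CPM per kilobase in GFPLow, 16.82, 17.58 and 16.42 in GFPhi, and 12.42 and 19.51 in WT. The sum in GFPLow thus exceeded that in every other library (35.61 ± 0.326 against 16.94 ± 0.589 in GFPhi, SD, n = 3 each). Without Pde3b it was 25.19 to 27.51 in GFPLow, 15.83 to 16.95 in GFPhi, and 12.21 and 19.29 in WT. GFPLow was thus also above the other groups without Pde3b, while the GFPhi values lay between those of WT.

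The make-up of the sum changed mostly through Pde3b. Pde3b held 21.9%, 24.9% and 29.8% of the summed level in GFPLow, 0.893%, 3.58% and 3.59% in GFPhi, and 1.75% and 1.09% in WT. Pde4b held the largest share in every library, at 40.8% to 49.8% in GFPLow, 45.7% to 52.7% in GFPhi, and 53.6% and 44.7% in WT. The share of Pde8a was 2.83% to 3.98% in GFPLow, below the 4.66% to 10.2% of GFPhi, although its CPM overlapped. The 10 other phosphodiesterases together held 8.47% to 10.9% in GFPLow and 16.5% to 24.6% in GFPhi, as shares of a sum that was larger in GFPLow. The level of Pde4b per kilobase was 1.37 to 2.27 times that of Pde3b in GFPLow, 12.7 to 59.1 times in GFPhi, and 30.7 and 41.2 times in WT. These shares depend on the length used: with the longest transcript, the mean share in GFPLow moved from 25.5% to 18.8% for Pde3b and from 45.0% to 58.5% for Pde4b.

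**Figure D2:**
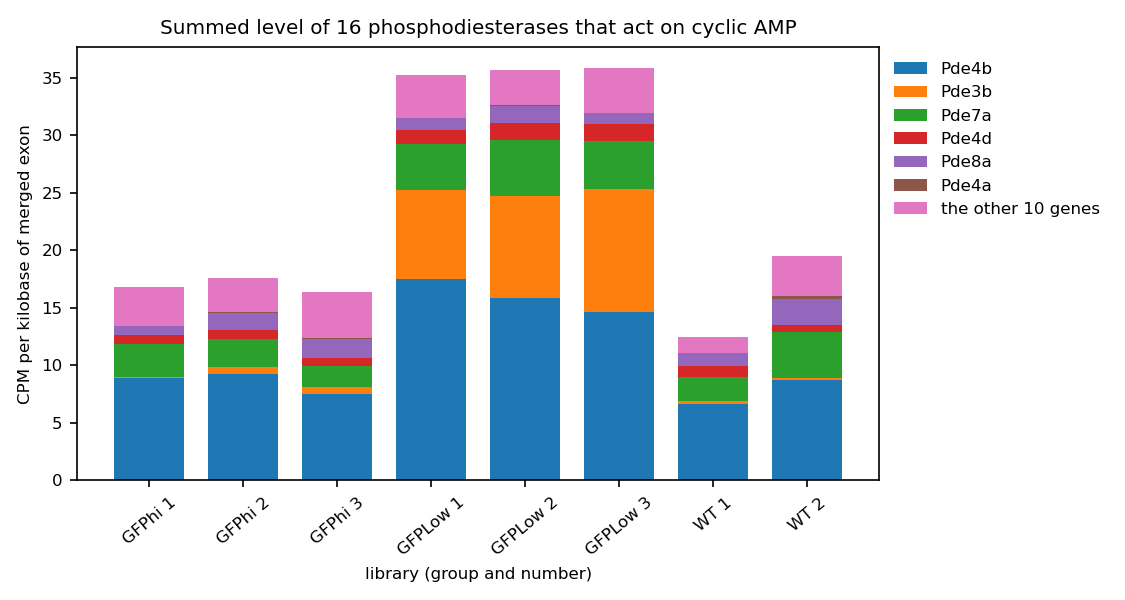
Stacked CPM per kilobase of merged exon (vertical axis) of 16 phosphodiesterases that act on cyclic AMP, 1 bar per library. GFPLow bars reach 35.25 to 35.88, all others at most 19.51, and the Pde3b segment is wide in GFPLow only among these 8 libraries.

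Adcy7, an adenylate cyclase typical of blood cells, encodes the synthetic side of the pathway (ENSMUSG00000031659, chr8:88272403-88329962, plus strand; 1 of its 3 promoter windows holds the core shown above). Its level was 219.4, 234.4 and 199.1 CPM in GFPLow, 149.2, 130.1 and 133.9 in GFPhi, and 159.8 and 141.8 in WT. GFPLow did not overlap with either group, at 0.66 ± 0.16 over GFPhi and 0.53 ± 0.18 over WT (0.62 ± 0.12 without WT library 1). GFPhi and WT overlapped, with -0.13 ± 0.18, and -0.04 ± 0.12 without that library. The summed phosphodiesterase level was 1.03 to 1.21 times that of Adcy7 per kilobase in GFPLow, 0.759 to 0.91 times in GFPhi, and 0.523 and 0.926 times in WT. Levels of RNA say nothing of enzyme activity, and in these sorted pools a change in the share of expressing cells and a change of RNA per cell cannot be told apart.

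The protein kinase A subunits differed little between the GFPLow and GFPhi cells. Prkar1a, the type I regulatory subunit (ENSMUSG00000020612, chr11:109649405-109669656, plus strand), had 678.6, 694.7 and 698.9 CPM in GFPLow and 663.9, 714.5 and 664.9 in GFPhi, with a log2 fold change of 0.02 ± 0.25. WT had 335.2 and 656.2, and the low value is that of WT library 1. GFPLow against WT was 0.48 ± 0.28, and 0.08 ± 0.07 without that library. GFPhi against WT was 0.46 ± 0.28, and 0.05 ± 0.07 without it.
Prkacb, a catalytic subunit (ENSMUSG00000005034, chr3:146729574-146812990, minus strand), had 180.9, 189.5 and 182.0 CPM in GFPLow, 153.9, 166.2 and 174.9 in GFPhi, and 79.07 and 161.4 in WT. GFPLow lay above GFPhi in every library by a small margin (0.16 ± 0.25), and the difference from WT was 0.61 ± 0.29, or 0.20 ± 0.09 without WT library 1. GFPhi against WT was 0.46 ± 0.28, and 0.03 ± 0.09 without that library. The ratio of the 2 subunits was similar in the 3 groups: the level of Prkar1a per kilobase was 7.44 to 7.8 times that of Prkacb in GFPLow, 7.72 to 8.76 times in GFPhi, and 8.61 and 8.25 times in WT.

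Rapgef4 encodes Epac2, an exchange factor for Rap1 that cyclic AMP activates (ENSMUSG00000049044, chr2:71981240-72257474, plus strand). Its level was 41.25, 37.71 and 26.71 CPM in GFPLow, 5.681, 6.268 and 4.484 in GFPhi, and 4.153 and 7.396 in WT. The GFPLow libraries were above all other libraries, and GFPhi and WT overlapped. GFPLow was 6.43-fold above GFPhi (2.68 ± 0.31) and 6.08-fold above WT (2.60 ± 0.36, and 2.26 ± 0.33 without WT library 1). GFPhi against WT gave -0.08 ± 0.32, and -0.43 ± 0.28 without that library. The antisense gene Rapgef4os2 shares 337 exonic bases with it (5.05% of the Rapgef4 exons) and had 0.1422 to 1.887 CPM. Without strand in the counting, reads of such a pair cannot be told apart. The paralogue Rapgef3, which encodes Epac1, had at most 0.5345 CPM in any library; it was chosen with its values in view.

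**Figure D3:**
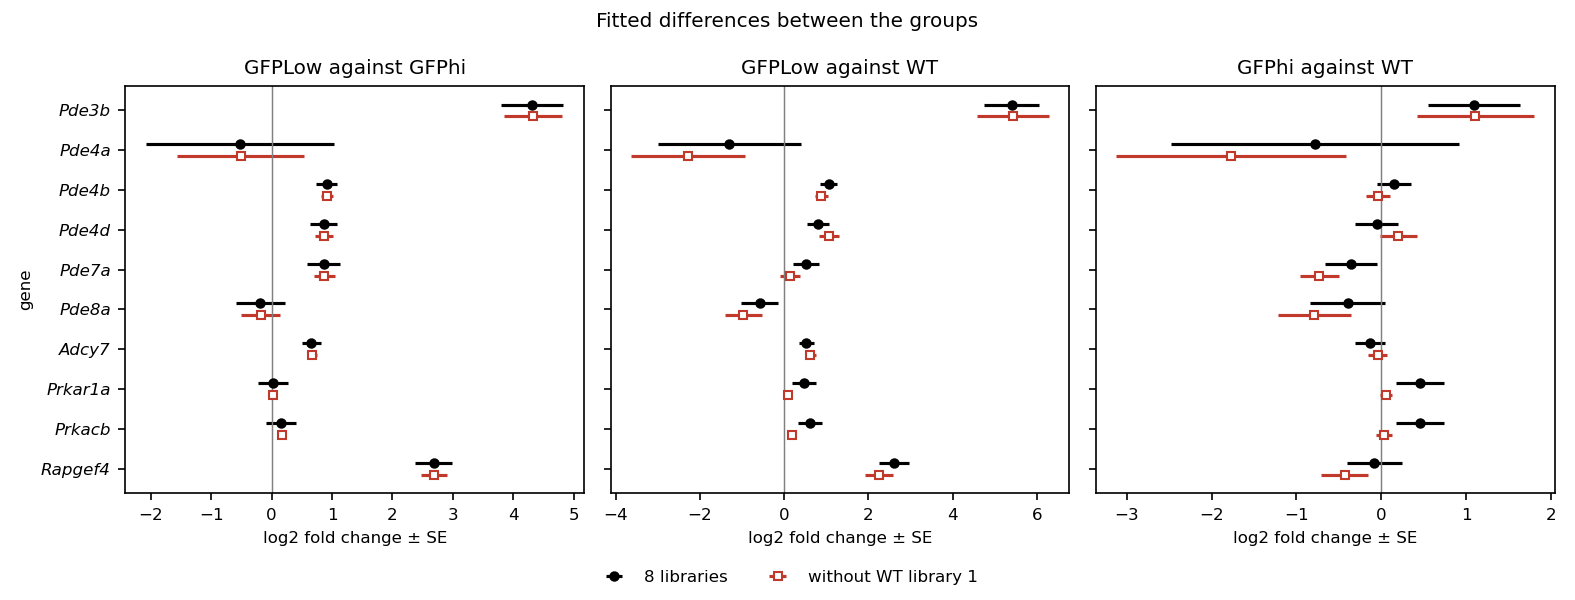
Log2 fold change (horizontal axes, ± SE) of the 10 genes in the 3 comparisons, from the fit to 8 libraries (black) and without WT library 1 (red, open). Pde3b and Rapgef4 lie far to the right in both comparisons of GFPLow, and the Prkar1a and Prkacb values against WT move to near 0 without that library.

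Counted by the threshold used for all genes (adjusted p under 0.05 in edgeR's quasi-likelihood test), 3 of the 10 genes were higher in GFPLow than in GFPhi, namely Pde3b, Pde4b and Rapgef4, where 0.626% of all genes tested were called higher. None of the 10 was lower, where 1.63% of all genes were. The libraries of the groups did not overlap for 7 of the 10, against 30.0% of all genes. GFPLow against WT called the same 3 genes higher (1.08% of all genes) and none lower (2.23%), and 8 of the 10 did not overlap (40.3% of all genes). GFPhi against WT called 0 of the 10 higher (0% of all genes) and 0 lower (0%), with 0 at an unadjusted p under 0.05, where 2588 of the 18851 genes were. DESeq2 called 0 of the 10 and 320 of all genes, and limma voom 0 and 0. In that comparison 1 of the 10, Prkar1a, did not overlap, against 28.1% of all genes. Both comparisons of GFPLow share its libraries, and since the 10 were chosen on these values nothing is read from the counts.

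The count of calls moved with the WT libraries, which enter the shared estimate of spread. Without WT library 1, 6 of the 10 were called higher in GFPLow than in GFPhi (Pde4d, Pde7a and Adcy7 in addition), where 4.30% of all genes were called higher, 5.35% were called lower, and none of the 10 was lower. With both WT libraries left out, 6 of the 10 were also called higher, beside 934 of all genes called higher. With WT library 2 alone, whose spread was then taken from the GFPhi and GFPLow libraries, 5 of the 10 were called higher (2.50% of all genes) and none lower (3.39%). The fit with WT library 1 alone rests on the library that stood apart, and its calls are not counted here. The count against WT was 5 with DESeq2, where 3243 of all genes were called. It was 1 with only the GFPLow and WT libraries in the fit (33 of all genes) and 0 with limma voom (72 of all genes). Leaving out any 1 GFPhi or GFPLow library left 2 of the 10 called in either comparison. In those fits 105 to 177 of all genes were called against GFPhi, and 213 to 329 against WT. The median log2 fold change of the 10 was 0.76 for GFPLow against GFPhi, beside -0.01 over all genes, 0.57 for GFPLow against WT, beside 0.02, and -0.07 for GFPhi against WT, beside 0.08.

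Ranked by CPM per kilobase, Prkar1a was first and Pde4a last in all 3 groups. In GFPhi the order was Prkar1a (157.6), Adcy7 (20.46), Prkacb (18.81), Pde4b (8.528), Pde7a (2.375), Pde8a (1.31), Rapgef4 (0.8204), Pde4d (0.7656), Pde3b (0.4566) and Pde4a (0.07911). Of these neighbours, Adcy7 and Prkacb, Pde8a and Rapgef4, and Rapgef4 and Pde4d overlapped between libraries. WT had the same order, where Pde7a and Pde8a, Rapgef4 and Pde4d, and Pde3b and Pde4a overlapped. In GFPLow, Pde3b stood in place 5 with 9.103 CPM per kilobase and Rapgef4 in place 6 with 5.275, ahead of Pde7a with 4.323, whose libraries overlapped with those of Rapgef4. Pde4d and Pde8a, in places 8 and 9, overlapped as well.

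For the genes with the largest rise and the largest fall in GFPLow against GFPhi, the 3 genes of most similar profile were sought among 8882 genes with a mean log2 CPM above 3. Likeness was the root mean square difference of centred log2 CPM over the 8 libraries, with smaller values being closer. For Pde3b these were Slc16a5 (0.932), Tdrp (0.958) and Sgk1 (0.975). Slc16a5, a monocarboxylate transporter family gene, had 77.86, 60.5 and 54.69 CPM in GFPLow, 5.175, 2.786 and 4.41 in GFPhi, and 0.7787 and 1.207 in WT. Sgk1, a kinase of the AGC family, had 164 to 234.3 CPM in GFPLow, 20.8 to 26.9 in GFPhi, and 11.91 and 16.1 in WT. For Pde4a they included Cerk (1.117) and AW011738 (1.234), both lowest in WT library 1, where Pde4a had no read. Cerk was also among the 3 nearest to Pde4a with the smaller prior count of 0.5, and AW011738 was not, while the 3 nearest to Pde3b were the same.

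The rest of the pathway was read from 14 lists with 113 genes, of which 112 were matched and 86 passed the filter. GFPLow against GFPhi called 1 of the 86 higher (1.16%) and 2 lower (2.33%), beside 0.626% and 1.63% of all genes. GFPLow against WT called 2 higher (2.33%) and 5 lower (5.81%), beside 1.08% and 2.23%. GFPhi against WT called none by edgeR, DESeq2 or limma voom, with 9 of the 86 at an unadjusted p under 0.05, beside 2588 of all 18851 genes. Without WT library 1, 91 were tested, and GFPLow against GFPhi called 7 higher (7.69%) and 10 lower (11%), beside 4.30% and 5.35% of all genes. GFPLow against WT then called 6 higher (6.59%) and 5 lower (5.49%), beside 2.50% and 3.39%. The median log2 fold change was -0.04 for GFPLow against GFPhi and 0.29 for GFPLow against WT, the latter -0.03 without WT library 1.

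The receptors that couple to the stimulatory G protein held all 3 calls between GFPLow and GFPhi (1 higher and 2 lower of 10 tested). Ptger2, the prostaglandin E2 receptor EP2, was 17.95, 24.54 and 20.32 CPM in GFPLow, 101.2, 98.85 and 92.59 in GFPhi, and 81.08 and 131.7 in WT. The GFPLow libraries were all far below the rest. It fell by 2.22 on the log2 scale against GFPhi (SE 0.23, edgeR adjusted p = 0.00353) and by 2.35 against WT (SE 0.24, adjusted p = 0.00405), and passed in every fit that left out 1 library.
Ptger4, the EP4 receptor for the same ligand, was 40.59, 48.86 and 46.51 CPM in GFPLow, 79.66, 85.96 and 73.91 in GFPhi, and 78.36 and 71.45 in WT. It fell by 0.82 against GFPhi (SE 0.16, edgeR adjusted p = 0.0364), while against WT the value was -0.72 ± 0.17 (adjusted p = 0.0661, and 0.0319 without WT library 1). The call against GFPhi was lost without any 1 of the 6 GFPhi and GFPLow libraries (adjusted p up to 0.19), and 16.5% of its exon bases are shared with 2 other genes.

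Vipr1, a receptor for vasoactive intestinal peptide, went the other way, with 47.52, 57.23 and 61.12 CPM in GFPLow, 4.612, 5.082 and 1.816 in GFPhi, and 0.6814 and 2.931 in WT. It rose by 3.85 ± 0.58 on the log2 scale against GFPhi (14.4-fold, edgeR adjusted p = 0.0144) and by 4.90 ± 0.73 against WT (adjusted p = 0.0127). The value against WT was 4.24 ± 0.60 without WT library 1 and 6.36 ± 0.72 without WT library 2. The first call was lost without any 1 of the 6 GFPhi and GFPLow libraries, with adjusted p of 0.0538 to 0.0871, and was kept without either WT library.
Gpr174, a lysophosphatidylserine receptor, was 74.12, 80.33 and 76.38 CPM in GFPLow, 132.7, 118.0 and 122.0 in GFPhi, and 223.2 and 144.2 in WT. It fell by 1.26 against WT (SE 0.21, edgeR adjusted p = 0.0184). Against GFPhi the value was -0.69 ± 0.19 (adjusted p = 0.138).

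Nuclear targets of the pathway held 2 calls, both against WT. Crem, whose short products repress cyclic AMP response elements, was 19.89, 21.39 and 24.85 CPM in GFPLow, 41.94, 37.23 and 45.08 in GFPhi, and 73.75 and 45.50 in WT. It fell by 1.43 against WT (SE 0.24, edgeR adjusted p = 0.0189), and the value against GFPhi was -0.91 ± 0.22 (adjusted p = 0.0909). Nr4a3, an orphan nuclear receptor induced through CREB and through the T cell receptor, was 3.624, 6.237 and 2.712 CPM in GFPLow, 22.25, 8.394 and 12.30 in GFPhi, and 27.09 and 17.38 in WT. It fell by 2.41 against WT (SE 0.50, edgeR adjusted p = 0.0418), and the value against GFPhi was -1.77. Of the lists these come from, 1 of 11 and 1 of 6 tested passed against WT.

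The anchoring proteins and the membrane complex of protein kinase A gave 1 call each against WT. Akap7, an anchoring protein, was 1.719, 0.8736 and 1.085 CPM in GFPLow, 2.887, 1.769 and 2.538 in GFPhi, and 7.430 and 5.000 in WT, and fell by 2.34 against WT (SE 0.46, edgeR adjusted p = 0.0336). Pag1, a membrane adaptor that binds the kinase Csk, was 45.82, 53.17 and 48.99 CPM in GFPLow, 29.62, 26.95 and 31.85 in GFPhi, and 27.12 and 22.76 in WT, and rose by 0.98 ± 0.19 against WT (adjusted p = 0.0333). Without WT library 1, the log2 fold changes against WT were -2.65 ± 0.15 for Ptger2, -0.90 ± 0.10 for Gpr174, -1.04 ± 0.17 for Crem and 1.12 ± 0.16 for Pag1, all past the threshold. Against GFPhi, the fit without WT library 1 gave -0.68 ± 0.07 for Gpr174, -0.90 ± 0.13 for Crem and 0.75 ± 0.11 for Pag1. It gave -1.77 ± 0.43 for Nr4a3 and -0.96 ± 0.38 for Akap7. The calls against WT were sensitive to single libraries. Akap7 and Nr4a3 missed the threshold without WT library 1 (adjusted p = 0.0553 and 0.073). Akap7, Nr4a3, Gpr174 and Pag1 missed it without any 1 of the 6 GFPhi and GFPLow libraries (adjusted p of 0.0521 to 0.161). Crem missed it without 5 of those 6, the exception being GFPhi library 3. With only the GFPLow and WT libraries in the fit, none of the pathway genes passed.

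**Figure D4:**
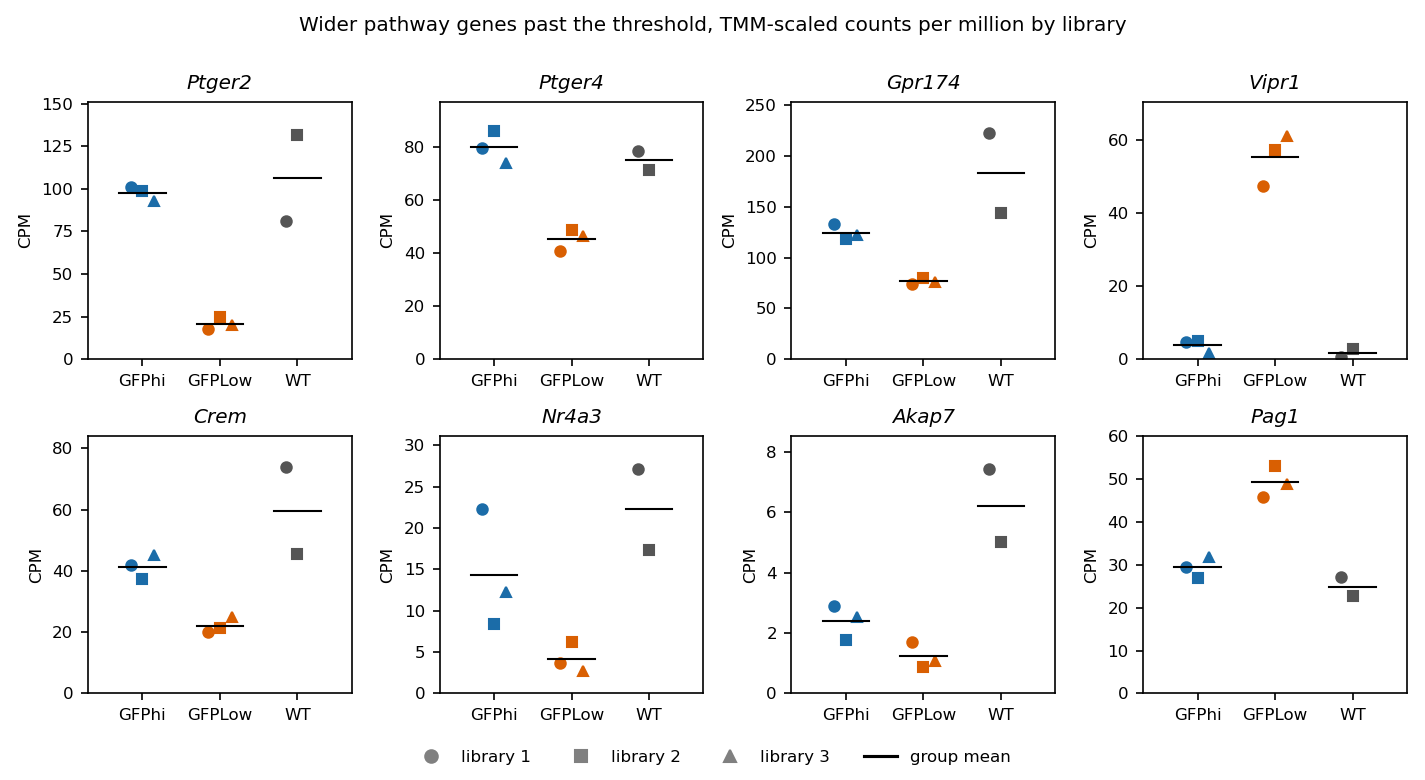
TMM-scaled CPM (vertical axes, each starting at 0) of the 8 other pathway genes past the threshold in at least 1 comparison, by group; symbols give the library number and bars the group mean. Ptger2 is 17.95 to 24.54 in GFPLow against 81.08 or more elsewhere, and Vipr1 is 47.52 to 61.12 against at most 5.082.

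The other 9 lists held no gene past the threshold in the fit to 8 libraries, and their most abundant genes are given. Among further phosphodiesterases for cyclic AMP, Pde11a had 7.05 to 10.27 CPM in GFPLow and 7.312 to 9.097 in GFPhi, and Pde1b 7.07 to 9.415 and 6.587 to 9.449. Of the list for cyclic GMP, Pde6d, which encodes a prenyl-binding protein and not a catalytic subunit, had 40.87 to 45.60 CPM in GFPLow and 48.63 to 55.17 in GFPhi, and Pde6b less than 1. Among the other cyclases, Adcy3 had 4.932 to 8.698 and 5.421 to 7.096 CPM, and Adcy6 5.851 to 11.94 and 3.862 to 4.912, far below Adcy7.

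The other protein kinase A subunits were also low, with Prkar2a at 4.571 to 7.671 CPM in GFPLow and 5.558 to 7.340 in GFPhi, and Prkaca at 3.643 to 6.722 and 4.461 to 6.670. Of the kinase inhibitors, Pkig had 1.443 to 1.737 CPM in GFPLow and 1.668 to 4.387 in GFPhi, and Pkib 1.056 to 1.898 and at most 0.1482. Rap1b, the target of Epac, had 760.0 to 999.3 CPM in GFPLow and 639.9 to 726.2 in GFPhi, and Rap1a 175.7 to 180.6 and 173.8 to 181.8. The inhibitory G protein subunit Gnai2 had 428.2 to 437.3 CPM in GFPLow and 391.4 to 418.6 in GFPhi, and Gnal, a stimulatory one, 40.24 to 44.70 and 36.34 to 48.64. The exporters Abcc5 (19.51 to 25.40 and 19.10 to 24.36 CPM) and Abcc4 (17.09 to 27.97 and 18.97 to 27.84) overlapped. The phosphodiesterase partner Rack1 (898.1 to 934.3 and 934.4 to 1003 CPM) had a log2 fold change of -0.08 ± 0.29.

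Markers of other cells varied with the groups. The 4 NK cell markers summed to 11.68 to 79.95 CPM in GFPLow, 1.741 to 2.982 in GFPhi, and 1.586 and 5.937 in WT, with all GFPLow libraries above all others. Klrb1c had 10.05, 11.11 and 31.36 CPM in GFPLow, above the 1.13 to 2.494 of GFPhi, and Gzma had 6.052, 0.5689 and 37.99, against at most 0.6114 in GFPhi. Klra8 was at 0 in GFPLow libraries 1 and 2 and at 2.79 in library 3. The defining gene Ncr1 was at 0 in GFPLow libraries 1 and 2 and at 7.807 in library 3. The 4 myeloid markers summed to 0.7314 to 210.8 CPM in GFPLow, 0.3012 to 11.53 in GFPhi, and 7.884 and 28.17 in WT. The 4 B cell markers summed to 4.95 to 11.82 CPM in GFPLow, 44.62 to 51.69 in GFPhi, and 52.98 and 73.82 in WT. The 4 platelet markers summed to at most 5.303 CPM, apart from 40.59 in WT library 1. GFPLow library 2 had the lowest myeloid and NK sums of its group, but the highest platelet sum (5.303 CPM). Its NK sum of 11.68 CPM was still above every GFPhi and WT library. That library had 81.03 CPM of Pde3b, 167.8 of Pde4b, 37.71 of Rapgef4 and 234.4 of Adcy7. The part of other cells in the group differences was not tested beyond these values.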

How the data were processed

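RNA was sequenced from 8 libraries (3 GFPhi, 3 GFPLow, 2 WT). Per the labels' protocols, sorted cells went straight into lysis buffer, and the SMART-Seq HT kit was followed by Nextera XT. The authors deposited whole-number counts per Ensembl gene, with no normalization. The submitters' processing notes name build GRCm38 and the tools HTSeq 0.11.2, HISAT2 2.1.0, SAMtools 1.9, R 4.0 and edgeR. What each did, the annotation and the use of strand were not given in the sources used here, so overlapping and antisense genes cannot be separated. Symbols, coordinates and exon lengths came from GENCODE vM21 (GRCm38), which held 54808 of the 54837 identifiers.

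Genes were filtered with edgeR 4.0.16 (filterByExpr, 18851 kept), scaled by TMM, and fitted in 1 quasi-likelihood model with 1 mean per group and robust estimation (5 residual degrees of freedom). The test was two-sided, with Benjamini-Hochberg adjustment over all genes and a threshold of 0.05. The standard error is the log2 fold change divided by the root of the F statistic. Depth was 44446215 to 55388756 counts per library; genes at a few reads, such as Pde4a, are imprecise. The fit was tested on simulated data. The members and lists were chosen with earlier results of these data known. All 10 members are named. Of each pathway list, up to 4 genes past the threshold are named by adjusted p, or else the 2 most abundant; any further gene is marked as chosen with its values in view. Gnai3 was not matched and is not analysed here, and a few genes that these rules would name are not reported here. Alternatives were other scaling and filters, DESeq2 1.42.0, limma 3.58.1 voom with sample weights, a block for the replicate number, fits to only the 2 groups compared or without robust estimation, each library left out in turn, another gene length for the shares and another prior count for the profiles. Software was R 4.3.3, and Python 3.11.15 with matplotlib 3.10.9 and pandas 2.3.3.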

Additional observations from a re-analysis of the deposited data

How the results depend on the processing

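The log2 fold changes of GFPLow against GFPhi kept their sign in every alternative for 9 of the 10 genes. The exception was Pde8a, at up to 0.04 with 1 library left out. That of Pde4a ran from -2.96 to -0.0019. The Pde4a values against WT turned positive without WT library 2, and also under other processing choices. Counts of calls moved more than the fold changes, and the cause was not tested. For GFPLow against GFPhi the pathway count of 3 became 14 with DESeq2, 15 with limma voom and 16 with only the 2 groups compared, and the count over all genes went from 426 to 1375, 2271 and 2105. For GFPLow against WT the pathway count of 7 became 22, 1 and 0, and that over all genes went from 623 to 3243, 72 and 33. For GFPhi against WT the count over all genes went from 0 to 320 with DESeq2 and 1 with no filter. With each library left out in turn, the pathway and all-gene counts ran from 1 to 17 and from 105 to 1984 (GFPLow against GFPhi), from 2 to 53 and from 213 to 9002 (GFPLow against WT), and from 0 to 47 and from 0 to 8234 (GFPhi against WT). The highest values against WT came without WT library 2, when the lone WT library 1 was assumed to vary like the other groups. Pathway genes read at a few reads per library, such as Pde6b, are limited by depth.

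Pairing was checked because GFPhi and GFPLow libraries share numbers. Same-numbered libraries deviated together with correlations of 0.067, 0.066 and 0.149, so not every pair was above 0.1, although each of these 6 libraries correlated best with its own number (the highest pair of differing numbers had 0.052). With the replicate block and all 8 libraries, 182 genes were called for GFPLow against GFPhi, and 158 genes and 2 pathway genes for GFPLow against WT; 2 of the 10 cyclic AMP genes were then called in either comparison, in place of 3. With the block and only the 2 groups compared, the counts were 1752 and 14 for GFPLow against GFPhi, 217 and 3 for GFPLow against WT, and 22 genes for GFPhi against WT, with 6, 2 and 0 of the 10 genes called.

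Lengths of the longest transcript in place of merged exons moved the mean phosphodiesterase shares in GFPhi, GFPLow and WT to 64.0%, 58.5% and 62.9% for Pde4b, and the Pde3b share in GFPLow to 18.8%.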
